A study of Mus musculus with 18 samples.

Results

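The genes described here encode the proteases that cut Notch receptors: Adam10 and Adam17, and the γ-secretase subunits Psen2, Psenen, Ncstn, Aph1a and Aph1b. They were taken by name, 7 of the 24391 genes in each of 2 deposited tables, and all 7 passed the filter on low values in both. RNA was sequenced from the mouse line E2-10HA, a hybridoma made with T cells, after depletion of ribosomal RNA. In the first experiment, cells selected with puromycin carried pLKO.1 plasmids with either a scramble hairpin or 1 hairpin against L3MBTL3 (shRNA_1), with 3 libraries per group. In the second, cells depleted of RBPJ were selected with blasticidin after infection with a pMY-Bio plasmid that was empty, carried Flag-tagged mouse RBPJ WT, or carried its F261A/A284V form, with 4 libraries per group. All 3 groups of the second experiment, the empty vector included, are thus of cells depleted of RBPJ. Only 1 hairpin and 1 cell line were used.

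Notch receptors are cut in steps after a ligand pulls on them. ADAM10, and in some settings ADAM17, clips the receptor just outside the membrane, and γ-secretase then cuts within the membrane and frees the part that enters the nucleus and binds RBPJ. γ-secretase is built from a presenilin, which is the catalytic subunit (Psen2 encodes a presenilin), with nicastrin (Ncstn), which holds the substrate, PEN-2 (Psenen), which is needed for the complex to mature, and an APH-1 protein, the scaffold (Aph1a or Aph1b). Mice have a further gene close to Aph1b, Aph1c, whose values are given beside it. L3MBTL3 is a described partner of RBPJ, and the comparisons give the RNA levels of the cutting machinery when it is targeted and when either form of RBPJ is put back.

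Each table holds normalized values, which are read counts divided by 1 factor per library. Reads recovered from the values ranged from 4882485 to 6129134 per library in the hairpin experiment. For RBPJ, replicates 1 and 2 had 5923799 to 7921533 reads, whereas replicates 3 and 4 had 3553505 to 4239479, and these sets stood apart in their values, as described further on. Some libraries of a group were no further apart than the sampling of reads gives, namely replicates 1 and 2 of the empty vector (chi-square over degrees of freedom 0.850), 1 and 2 of RBPJ WT (0.706), and 3 and 4 of F261A/A284V (0.813). Each such pair differed by less than this noise and was counted as 1 sample in means ± SD, so n is 3 in every group. The merged pairs of the empty vector and RBPJ WT lie in replicates 1 and 2, and that of F261A/A284V in replicates 3 and 4. These means ± SD of the RBPJ groups thus weight the sets of replicates unequally and do not by themselves compare groups. The labels do not say that replicates were separate cultures, so the p-values take in no more than the spread among these samples, which may be technical. Against the empty vector, Rbpj itself was higher with RBPJ WT (log2 difference 1.31, adjusted p = 0.000475, limma with group as the only term). It was also higher with F261A/A284V (log2 1.48, adjusted p = 0.00114, same fit). Both plasmids carry mouse RBPJ, so the values of Rbpj may include reads from them. The transcript of L3mbtl3 was little lower in the libraries labelled L3MBTL3 shRNA (378 ± 13.8 against 422 ± 61.8, SD, n = 3 each; log2 -0.15, adjusted p = 0.402), and scramble replicate 3, at 352, lay below all of them, so directions in that experiment are those of the labels. All 7 T cell markers examined (Cd3d, Cd3e, Cd3g, Cd247, Lck, Zap70 and Cd28) were detected, summing to between 3058 and 4120 per library. Markers of B cells, NK cells and stroma summed to at most 4.62 in any library.

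Levels were compared between the genes per kilobase of exon (exon lengths from the GENCODE M21 annotation of GRCm38). The genes lie apart in the genome, Adam10 and Aph1b on chromosome 9, Adam17 on 12, Psen2 and Ncstn on 1, Psenen on 7 and Aph1a on 3, with exon lengths from 1275 bases (Psenen) to 7154 bases (Adam17). Aph1a ranked first in all 5 groups, at 223 ± 23.6 normalized units per kb in the empty vector group (SD, n = 3). Adam10, at 159 ± 9.59, and Ncstn, at 147 ± 6.62, followed there and lay within each other's spread, and Adam17 ranked 4 at 122 ± 6.71. Psenen (98.4 ± 8.53), Aph1b (50.6 ± 9.91) and Psen2 (38.1 ± 3.83) came next in the same order in every group, with Aph1c last at 9.95 ± 1.62. The order was the same with RBPJ WT and F261A/A284V, and with scramble Ncstn (186 ± 10.5) stood before Adam10 (175 ± 11.5), within their spread. With RBPJ WT, Aph1b (40.5 ± 11) and Psen2 (38.9 ± 2.39) were within their spread. Most of the APH-1 level per length was thus that of Aph1a in every library.

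Adam10, the main sheddase that opens Notch to γ-secretase, had higher values in the libraries labelled L3MBTL3 shRNA. For replicates 1, 2 and 3 its normalized values were 922, 853 and 810 with scramble and 987, 999 and 994 with the hairpin. Every shRNA library lay above every scramble library. Mean values were 993 ± 5.9 for the hairpin and 862 ± 56.4 for scramble (SD, n = 3 each), a difference of 15.3% (log2 0.21, SE 0.0589). This did not pass the test (limma on log2 values, group as the only term, adjusted p = 0.0824 by Benjamini-Hochberg over 11586 genes), whereas the paired fit, in which replicate numbers form blocks, called it (adjusted p = 0.0211). Whole-sample RNA cannot tell fewer cells of a type from less RNA per cell, here and in all that follows.

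Between the RBPJ groups Adam10 stayed within the spread of the libraries. It read 842, 823, 739 and 775 with the empty vector, 863, 821, 768 and 822 with RBPJ WT, and 932, 831, 755 and 786 with F261A/A284V, in replicates 1 to 4. All 3 groups overlapped. The paired 95% interval of the log2 difference ran from -0.04 to 0.13 for RBPJ WT against the empty vector, from -0.03 to 0.14 for F261A/A284V against it, and from -0.08 to 0.10 between the forms of RBPJ. None of the 3 passed with or without the block (paired adjusted p of 0.687 or more).

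Adam17, the sheddase first known for releasing TNF, showed a small difference that repeated in both sets of replicates. With the empty vector it read 833, 804, 912 and 885, with RBPJ WT 902, 877, 960 and 991, and with F261A/A284V 860, 861, 895 and 929. Within replicates 1 and 2, and again within replicates 3 and 4, both RBPJ WT libraries lay above both empty vector libraries. RBPJ WT was higher by 8.70% in replicates 1 and 2 and by 8.61% in replicates 3 and 4, and F261A/A284V differed from RBPJ WT by -3.29% and -6.54% there. None of this passed a test: for RBPJ WT against the empty vector the log2 difference was 0.12 (paired 95% interval 0.04 to 0.20), with an adjusted p of 1.00 without the block and 0.147 with it. Between the hairpin groups Adam17 did not pass (1217 ± 58.4 against 1233 ± 33.4, log2 -0.02, paired interval -0.13 to 0.09, adjusted p = 0.835).

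**Figure D1:**
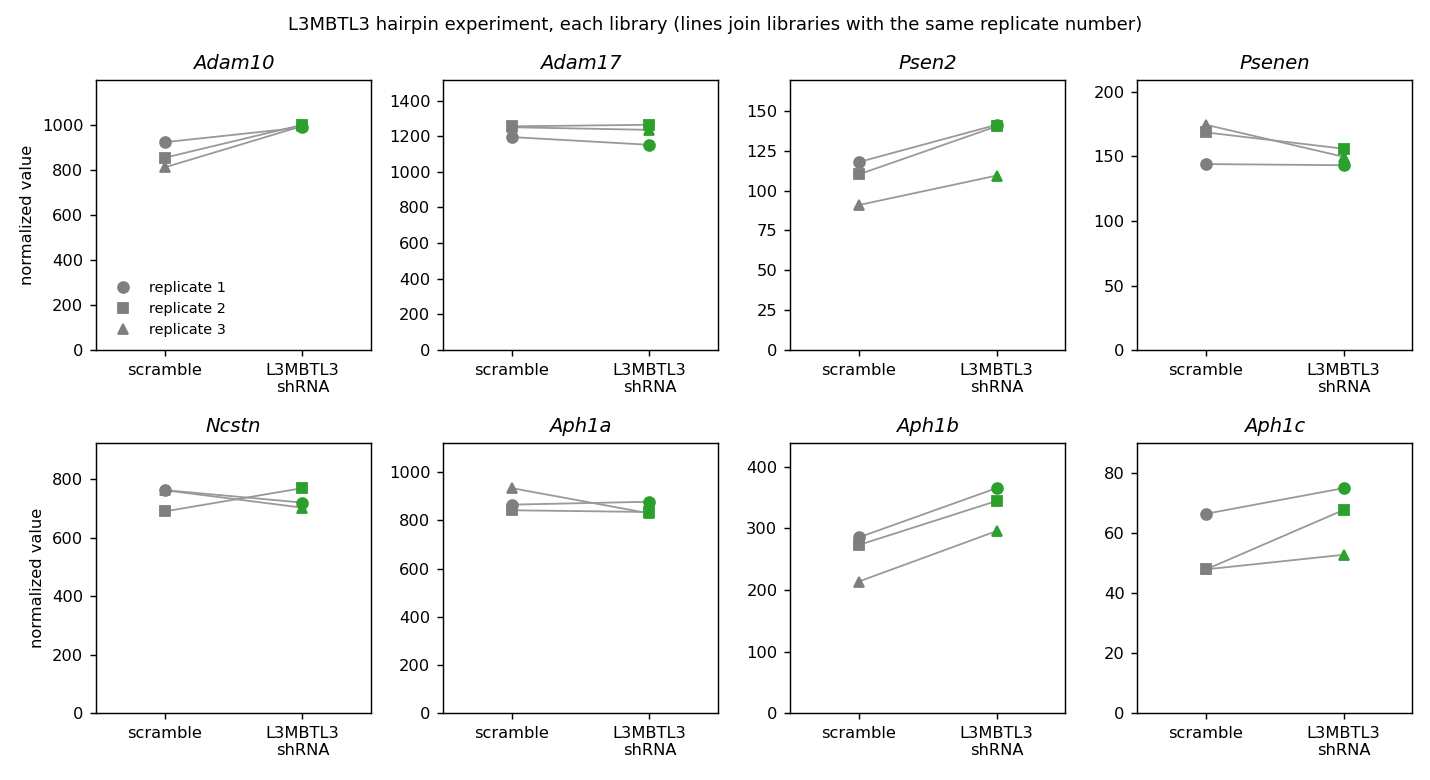
Normalized value (vertical axis, from 0) of the 7 genes and Aph1c in each library of the hairpin experiment, with scramble in grey and L3MBTL3 shRNA in green; marker shapes give the replicate number and lines join libraries of the same number. Adam10 and Aph1b are the members whose shRNA libraries all lie above all scramble libraries, and Psen2 was higher within each number but its groups overlap.

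Psen2, a presenilin and so a catalytic subunit, was higher in the shRNA library of every replicate number, with overlap between the groups. It read 118, 110 and 91.0 with scramble and 141, 140 and 109 with the hairpin. The means were 106 ± 13.9 and 130 ± 18.1 (n = 3 each), with a log2 difference of 0.29 (SE 0.155) that did not pass (adjusted p = 0.276, and 0.115 in the paired fit, interval 0.02 to 0.56). Between the RBPJ groups Psen2 differed in opposite directions in the sets of replicates. It read 165, 173, 147 and 179 with the empty vector, 178, 181, 167 and 159 with RBPJ WT, and 150, 163, 174 and 194 with F261A/A284V. F261A/A284V was therefore below RBPJ WT in replicates 1 and 2 and above it in replicates 3 and 4, without overlap each time. Between these groups 37.1% of all genes did not overlap in replicates 1 and 2, and 52.7% in replicates 3 and 4, so such separation is common. The difference between these sets, tested as an interaction of group and set, was 0.37 on the log2 scale (adjusted p = 0.298) and did not pass.

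Psenen, whose product PEN-2 triggers the maturation of presenilin, did not differ past the spread in any comparison. It read 144, 169 and 174 with scramble and 143, 156 and 150 with the hairpin (162 ± 16.1 and 150 ± 6.4, log2 -0.11, adjusted p = 0.532). Between the RBPJ groups it averaged 125 ± 10.9 with the empty vector, 124 ± 13.6 with RBPJ WT and 115 ± 19 with F261A/A284V. Without merging, over the 4 libraries of each group, these means were 123, 121 and 119. The paired intervals were wide for this gene, from -0.22 to 0.18 for RBPJ WT against the empty vector. Ncstn, the subunit that receives the substrate, was as even: 763, 690 and 762 with scramble, 720, 769 and 703 with the hairpin, and 583 ± 26.3, 610 ± 30.9 and 603 ± 37.8 with the empty vector, RBPJ WT and F261A/A284V. Without merging it averaged 579, 604 and 612 with the empty vector, RBPJ WT and F261A/A284V. Its paired intervals ran from -0.15 to 0.12 in the hairpin experiment and from -0.03 to 0.15 for RBPJ WT against the empty vector.

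Aph1a, the most abundant scaffold gene, did not pass in any comparison either. Its values were 865, 841 and 933 with scramble and 877, 834 and 828 with the hairpin (log2 -0.05, paired interval -0.18 to 0.07). With the RBPJ plasmids it read 651, 701, 828 and 802 with the empty vector, 655, 652, 768 and 790 with RBPJ WT, and 688, 629, 825 and 803 with F261A/A284V. In all 3 groups both libraries of replicates 3 and 4 lay above both of replicates 1 and 2. Exons of 4 members overlap exons of a gene on the other strand: Adam17 shares 311 bases with Iah1, Psenen 230 with U2af1l4 and Gm49396, Ncstn 195 with Copa, and Aph1a 445 with Car14. How the authors' counting treated strand was not given in the sources used here, so reads of such partners may be mixed in these values.

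Aph1b, the second scaffold gene, was the member that changed most. In the hairpin experiment it read 285, 273 and 214 with scramble and 365, 344 and 296 with the hairpin. All 3 shRNA libraries lay above all 3 scramble libraries, and replicate 3 was the lowest of each group. Scramble replicate 3, with the fewest reads of that experiment, stood apart from scramble replicates 1 and 2 over all genes. Its chi-square over degrees of freedom was 6.54 and 6.71 against them, and 1.44 between those 2. Mean values were 335 ± 35.7 for the hairpin and 257 ± 38.2 for scramble (SD, n = 3 each), a fold of 1.31 (log2 0.38, SE 0.127) that missed the threshold without the block (adjusted p = 0.115), whereas the paired fit called it (SE 0.0787, adjusted p = 0.00541). Aph1c read 66.4, 47.9 and 47.9 with scramble and 75.0, 67.7 and 52.8 with the hairpin, a log2 difference of 0.27 that did not pass (paired adjusted p = 0.290).

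In the RBPJ experiment Aph1b was lowest with RBPJ WT on both sides of the divide between replicates. With the empty vector it read 300, 340, 233 and 231, with RBPJ WT 273, 276, 169 and 184, and with F261A/A284V 332, 348, 239 and 285. Both RBPJ WT libraries lay below both libraries of each other group within replicates 1 and 2, and again within replicates 3 and 4, while over all 4 replicates the groups overlapped. RBPJ WT differed from the empty vector by -14.4% and -23.7% in those sets, and F261A/A284V was above RBPJ WT by 23.8% and 48.2%. Without a term for replicate or set, neither difference passed (log2 -0.31, SE 0.194, adjusted p = 1.00; log2 0.43, SE 0.194, adjusted p = 1.00). In the paired fit both passed, with adjusted p of 0.0152 for RBPJ WT against the empty vector (interval -0.45 to -0.16) and 0.000355 for F261A/A284V against RBPJ WT (interval 0.29 to 0.57). With the near-identical libraries merged and the set of replicates as a term, called the merged fit here, they were -0.33 (adjusted p = 0.0267) and 0.44 (adjusted p = 0.00292). Within replicates 1 and 2 alone F261A/A284V was above RBPJ WT by log2 0.31 and within replicates 3 and 4 by log2 0.56. RBPJ WT against the empty vector did not pass within either set. Near-identical pairs counted here as 1 sample lie in both sets, so no p-value is given for fits within a set. The comparisons of RBPJ WT with the empty vector and of F261A/A284V with RBPJ WT share the RBPJ WT libraries. They are thus not independent of each other.

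F261A/A284V did not pass against the empty vector for Aph1b. The log2 difference was 0.13 (paired interval -0.01 to 0.27, adjusted p = 0.483), a difference of 6.05% in replicates 1 and 2 and 13.0% in replicates 3 and 4. The interaction of group with the set of replicates did not pass for Aph1b in any of the 3 comparisons (adjusted p of 0.428 or more). Aph1c, at 56.4, 66.2, 45.2 and 48.9 with the empty vector, 50.5, 54.5, 43.3 and 30.9 with RBPJ WT, and 61.4, 65.3, 35.4 and 51.5 with F261A/A284V, was also below the empty vector with RBPJ WT within each set (log2 -0.28), but did not pass (paired adjusted p = 0.437). Its lower level gives a wide paired interval, from -0.60 to 0.03.

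**Figure D2:**
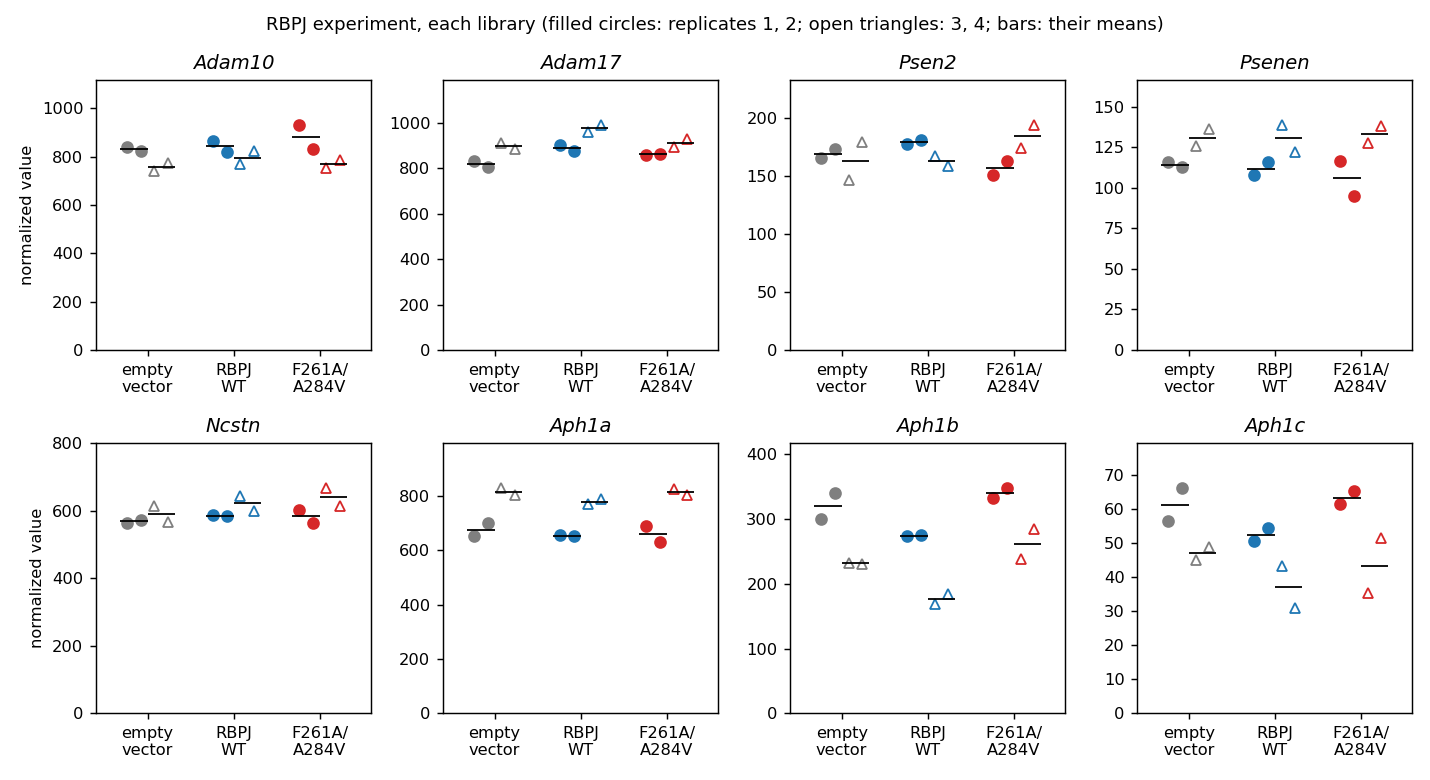
Normalized value (vertical axis, from 0) of the 7 genes and Aph1c in each library of the RBPJ experiment, by group; filled circles are replicates 1 and 2, open triangles replicates 3 and 4, and bars the mean of each such set. Aph1b is lowest with RBPJ WT in both sets, and Psenen and Aph1a lie higher in replicates 3 and 4 in every group.

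The stretches upstream of Aph1b and Aph1c are shown because the genes are close relatives that lie near each other, and their values followed each other in part. Over the 12 RBPJ libraries, with each set of replicates centred on its own mean, Aph1b and Aph1c correlated at r = 0.63, a description only, since these libraries share their group and depth. Both genes lie on the minus strand of chromosome 9, at separate starts, Aph1b with chr9:66795424-66795673 and Aph1c with chr9:66834707-66834956 as the 250 bases before the start (RefSeq, GRCm38.p6). Capitals mark runs of at least 10 bases that both stretches hold. The sequences, 5′ to 3′ on the gene's strand, are:
Aph1b: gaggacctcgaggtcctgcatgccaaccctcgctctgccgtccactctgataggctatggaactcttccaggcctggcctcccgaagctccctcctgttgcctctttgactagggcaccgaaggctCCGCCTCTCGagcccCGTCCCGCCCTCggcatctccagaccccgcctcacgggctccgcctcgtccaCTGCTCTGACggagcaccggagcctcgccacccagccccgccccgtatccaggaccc
Aph1c: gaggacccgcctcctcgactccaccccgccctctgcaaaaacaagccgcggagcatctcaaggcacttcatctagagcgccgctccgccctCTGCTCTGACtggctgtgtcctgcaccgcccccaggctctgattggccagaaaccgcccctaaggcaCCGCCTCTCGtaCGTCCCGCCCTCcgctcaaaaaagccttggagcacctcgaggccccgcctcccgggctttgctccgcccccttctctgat
They share 3 such runs, the longest of 12 bases, 32 bases in all, and hold 68.0% and 65.6% G and C. RefSeq lists each of these symbols as a synonym of the other gene, so which of the genes the tables call Aph1b depends on the annotation the authors used, which was not given in the sources used here. Reads that fit both copies may also have been divided or dropped by that counting.

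The part of the APH-1 genes' level that Aph1b made up followed its values. Its share of the summed level per length of Aph1a, Aph1b and Aph1c was 12.9% to 17.3% with scramble and 18.6% to 20.9% with the hairpin. In replicates 1 and 2 of the RBPJ experiment it was 22.6% to 23.4% with the empty vector, 20.9% to 21.1% with RBPJ WT and 23.3% to 25.7% with F261A/A284V. In replicates 3 and 4 it was 15.3% to 15.6%, 12.4% to 13.2% and 15.8% to 18.6%. RBPJ WT libraries were the lowest of each set, and the difference between the sets was larger than that between groups. No test was run on this share, which is computed from the values already tested.

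**Figure D3:**
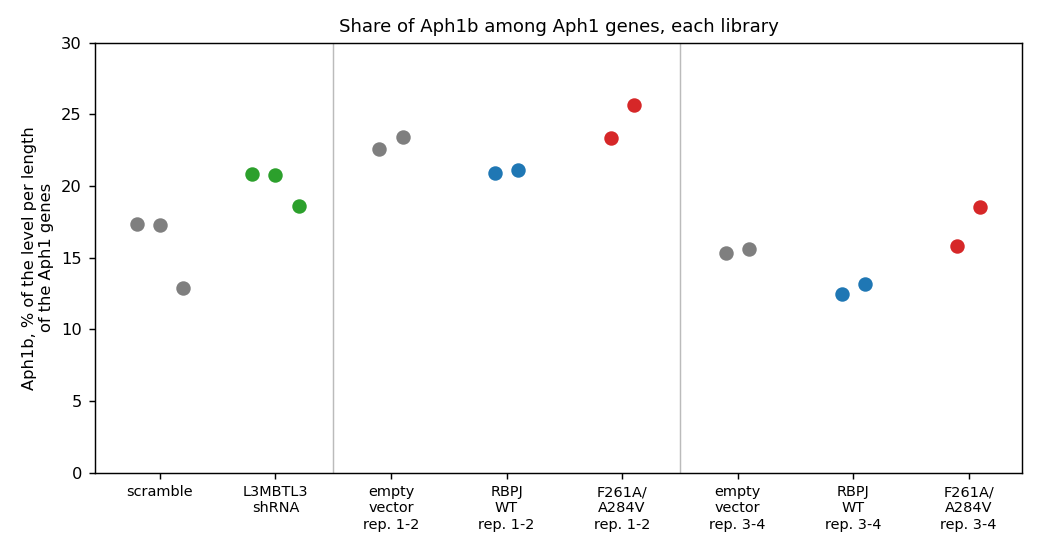
Aph1b as a percentage of the summed level per length of Aph1a, Aph1b and Aph1c (vertical axis, from 0) in each library, with the hairpin experiment on the left and replicates 1 and 2 and replicates 3 and 4 of the RBPJ experiment beside it. RBPJ WT libraries lie below the other groups of their set, and the shRNA libraries, at 18.6% to 20.9%, lie above scramble.

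Counted over the members, few passed any test. In the hairpin experiment limma without the block called 0 of 7 (2 at an unadjusted p under 0.05), against 3.32% of all genes tested, and edgeR and DESeq2 on the recovered reads called 0 as well. The paired fit called 2 of 7, Adam10 and Aph1b, both higher, where it called 22.2% of all genes. Groups did not overlap for the same 2 of 7, against 35.2% of all genes, so the members' share is not above the background. Without replicate 3 of both groups, limma without the block called Adam10 and Aph1b too (log2 0.16 and 0.34), against 16.6% of all genes.

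For RBPJ WT against the empty vector, limma without the block called 0 of 7 members (0 at an unadjusted p under 0.05; edgeR and DESeq2 0 each) and 0.248% of all genes. The paired fit called 1 of 7, Aph1b, and 2.23% of all genes, and the fit with near-identical libraries merged called 1 of 7 and 1.52%. No member's groups were apart over all libraries, as 3.34% of all genes were, while Aph1b and Adam17, 2 of 7, were apart in the same direction within each set, against 17.6% of all genes. For F261A/A284V against the empty vector the 3 fits called 0 of 7 members (0 at an unadjusted p under 0.05 in each; edgeR and DESeq2 0), and 0.0171%, 0.65% and 0.0941% of all genes. No member was apart over all libraries or within each set, against 1.92% and 10% of all genes.

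Between F261A/A284V and RBPJ WT, limma without the block called 0 of 7 members (1 at an unadjusted p under 0.05; edgeR and DESeq2 0 each) and 0.316% of all genes. The paired and merged fits each called 1 of 7, Aph1b, against 4.74% and 1.96% of all genes. No member was apart over all libraries (3.7% of all genes), and Aph1b and Adam17 were apart in the same direction within each set (14.5% of all genes), while Psen2 was apart in opposite directions. With all libraries in the fit, Aph1b was thus the member called in 3 of the 4 comparisons, each time with a term for the replicate number or set. The comparisons of RBPJ WT and of F261A/A284V with the empty vector share the empty vector libraries.

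**Figure D4:**
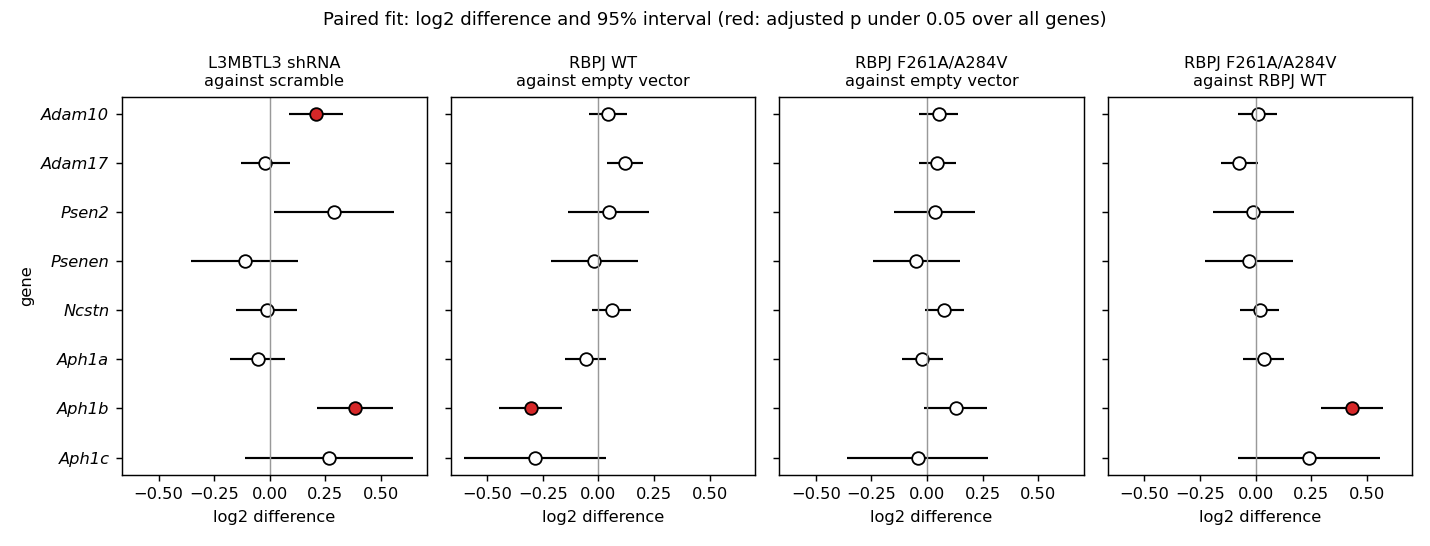
Log2 difference (horizontal axis) of each gene in the 4 comparisons from the paired fit, with its 95% interval, which is not adjusted for the number of genes; red points have an adjusted p under 0.05 over all genes tested. Aph1b is red in 3 panels and Adam10 in the hairpin panel, and the other intervals of the members reach or lie near 0.

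The divide between replicates 1 and 2 and replicates 3 and 4 of the RBPJ experiment, found in the values themselves and described here only, touched the members unequally. Psenen averaged 111 in replicates 1 and 2 and 132 in replicates 3 and 4 (log2 0.25), and Aph1a 663 and 803 (log2 0.28), and for both all 6 libraries of replicates 3 and 4 lay above all 6 of replicates 1 and 2. Such separation held for 2 of 7 members and 47.5% of all genes. Aph1b averaged 311 and 223 (log2 -0.49), with the sets overlapping because F261A/A284V replicate 4, at 285, lay above RBPJ WT replicates 1 and 2. Aph1c differed by -0.48, Adam10 by -0.14, Adam17 by 0.12, Ncstn by 0.09 and Psen2 by 0.01. Depth differed between the same sets, and its part in these values was not tested.

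Markers of other cells were followed beside these results. Myeloid markers (Lyz2, Csf1r, Cd68, Itgam, Adgre1), of which 1 of 5 passed the filter in the hairpin experiment and 3 of 5 in the other, summed to 333 to 375 with scramble and 236 to 305 with the hairpin. They summed to 186 to 219 with the empty vector, 149 to 178 with RBPJ WT and 189 to 244 with F261A/A284V. These sums were therefore lowest with RBPJ WT, the group in which Aph1b was lowest within each set of replicates. Between the empty vector and F261A/A284V the sums overlapped. In the hairpin experiment they were lower with the hairpin, where Aph1b was higher. None of the 5 was at 0 throughout a group, but in the RBPJ experiment Csf1r reached at most 4.59 and Adgre1 at most 0.89. Of the 7 T cell markers, Cd28 alone passed the paired fit for RBPJ WT against the empty vector and was lower with RBPJ WT (log2 -0.78, adjusted p = 1.68e-07). Against RBPJ WT, Cd28 was higher with F261A/A284V (log2 0.49, adjusted p = 7.57e-05), and against the empty vector it was lower with F261A/A284V (log2 -0.30, adjusted p = 0.0434), a call the merged fit did not make. Of the myeloid markers the paired fit called Cd68 lower with the hairpin (log2 -0.38, adjusted p = 0.00781) and higher with F261A/A284V than with RBPJ WT (log2 0.47, adjusted p = 0.0102), the latter lost in the merged fit. It also called Itgam lower with RBPJ WT than with the empty vector (log2 -1.74, adjusted p = 5.17e-05) and higher with F261A/A284V than with RBPJ WT (log2 1.09, adjusted p = 0.00508). The paired fit called 22.2% of all genes with the hairpin and 4.74% between the forms of RBPJ. Against the empty vector it called 2.23% with RBPJ WT and 0.65% with F261A/A284V. The part of these markers in the Aph1b values was not tested.

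Sites for RBPJ near the genes were looked up because the second experiment changes this factor, which binds the core letters TGGGAA, often as GTGGGAA. Both were searched on both strands in RefSeq windows (GRCm38.p6) from 250 bases before to 50 after each start, and every GTGGGAA also counts as the shorter form. The shorter form was found for 3 of 7 members and in windows of 28.3% of 27025 genes, and GTGGGAA for 2 of 7 and 7.25%. The sites follow, 5′ to 3′ on the gene's strand with the matching letters, or their reverse complement, in capitals: Psen2 at chr1:180246022-180246051 (minus strand, upstream of its second listed start), Psenen at chr7:30563279-30563308 (minus strand, second listed start) and Aph1a at chr3:95893905-95893934 (plus strand, across the start).
Psen2: agcacaggagacTTCCCACagatgtttatc
Psenen: gcttaggagcgtTGGGAAgtgtagtttctg
Aph1a: ggccttccggggGTGGGAAttagatgggag
The match lies at -89 to -83 from the start in Psen2, -92 to -87 in Psenen and -4 to 3 in Aph1a. No match was found in the windows of Adam10, Adam17, Ncstn, Aph1b or Aph1c. A match is only a description of letters, and neither binding nor other regions were measured here.

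Genes that act around the proteases were read from lists. Of 9 tested genes for the maturation, transport and inhibition of ADAM proteases, 2 rose with the hairpin: Tspan5, a tetraspanin that escorts ADAM10, from 321, 299 and 242 to 465, 461 and 500 (log2 0.73, adjusted p = 0.0314), and Furin, which removes the prodomain of ADAM proteases, from 999, 907 and 933 to 1255, 1230 and 1156 (log2 0.36, adjusted p = 0.0343). Without the block 3.32% of all genes were called. For both, every shRNA library lay above every scramble library, as for Adam10 and for 35.2% of all genes. The paired fit, which called 22.2% of all genes, added Pacs2 (log2 0.23, adjusted p = 0.00868), a sorting protein. The list's median log2 difference was 0.08, against -0.01 over all genes. In the RBPJ experiment none of the 9 passed without the block (1 at an unadjusted p under 0.05 for RBPJ WT against the empty vector, 0 in the other comparisons), and the paired fit called Frmd8, a partner of the iRhom proteins that carry ADAM17, lower with RBPJ WT (log2 -0.21, adjusted p = 0.0251). The paired fit called 2.23% of all genes there, and in the merged fit Frmd8 did not pass (adjusted p = 0.124).

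Of 9 tested partners of γ-secretase and related membrane proteases, none passed without the block in any comparison (1 at an unadjusted p under 0.05 in the hairpin experiment, 0 in the others). In the paired fit Sppl2b, a signal peptide peptidase-like protease, was higher with the hairpin (log2 0.63, adjusted p = 0.00132), with values of 237, 230 and 144 against 347, 317 and 265. That fit called 22.2% of all genes. The list's median log2 differences lay between -0.03 and 0.10.

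Of other members of the ADAM family, 3 were called between RBPJ groups in the paired fit. Of 5 tested (Adam8, Adam9, Adam12, Adam15 and Adam22), none passed without the block in any comparison (2 at an unadjusted p under 0.05 for RBPJ WT against the empty vector, 2 for F261A/A284V against RBPJ WT, 1 for the hairpin and 0 for F261A/A284V against the empty vector). The paired fit called Adam12, Adam8 and Adam9 higher with RBPJ WT than with the empty vector, where it called 2.23% of all genes. Adam12, a cell-surface metalloprotease, read 130, 161, 133 and 157 with the empty vector, 263, 239, 303 and 273 with RBPJ WT, and 168, 201, 100.1 and 103 with F261A/A284V (log2 0.89, paired adjusted p = 0.0014). All 4 RBPJ WT libraries lay above all 8 others. Over all libraries, groups did not overlap for 3.34% of all genes (RBPJ WT against the empty vector) and 3.7% (between the forms). Adam8, found on leukocytes, read 494, 506, 768 and 697 with the empty vector and 669, 653, 1083 and 1153 with RBPJ WT (log2 0.51, paired adjusted p = 1.43e-06), and Adam9 was higher by log2 0.23 (paired adjusted p = 0.0157). Between F261A/A284V and RBPJ WT the same 3 genes were lower (log2 -0.97, -0.31 and -0.20, paired adjusted p of 0.000365, 0.000423 and 0.0193). The paired fit called 4.74% of all genes there, and the merged fit lost Adam9 (adjusted p = 0.0895). With the hairpin, Adam8 was lower in the paired fit (log2 -0.19, adjusted p = 0.0228), which called 22.2% of all genes in that experiment.

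Among 17 tested genes of Notch receptors, ligands and signalling, 3 rose with the hairpin: Rfng, a sugar transferase that modifies Notch (log2 0.93, adjusted p = 0.0328), the receptor gene Notch2 (log2 0.40, adjusted p = 0.0328) and the coactivator gene Maml3 (log2 0.60, adjusted p = 0.0348). The paired fit called 9 of 17, all higher, where it called 22.2% of all genes (3.32% without the block), with Jag1 (log2 1.13) and Notch1 (log2 1.02) the largest in size. The list's median log2 difference was 0.39, against -0.01 over all genes. Of 18 tested in the RBPJ experiment, 1 was called against the empty vector for each form of RBPJ without the block, Rbpj itself. In the paired fit for RBPJ WT, which called 2.23% of all genes, 4 were lower. Among them were the target gene Hey1 (log2 -1.87, adjusted p = 0.00308), the receptor gene Notch1 (log2 -1.54, adjusted p = 3.09e-07) and the ligand gene Jag1 (log2 -1.11, adjusted p = 0.00382). Between F261A/A284V and RBPJ WT the paired fit called 5 of 18, all higher, where it called 4.74% of all genes, among them Hey1 (log2 2.34), Notch1 (log2 1.38), Jag1 (log2 0.97) and Hes1 (log2 0.96), and against the empty vector F261A/A284V was higher for Hes1 (log2 0.34, adjusted p = 0.0135). The merged fit lost Hes1 against the empty vector (adjusted p = 0.137) and Maml3, the other of the 5, between the forms (log2 0.30, adjusted p = 0.0562). Hey1 had few reads, with values of at most 33.4. Notch1, a substrate of the proteases, read 177, 178, 122 and 113 with the empty vector, 73.7, 67.8, 40.8 and 28.1 with RBPJ WT, and 141, 203, 87.8 and 112 with F261A/A284V. All 4 RBPJ WT libraries lay below all 8 others, and the direction was that of Aph1b. Over all libraries, groups did not overlap for 3.34% of all genes (RBPJ WT against the empty vector) and 3.7% (between the forms).

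Surface proteins that ADAM proteases shed from T cells moved in both directions. Of 6 tested in the hairpin experiment, Il6ra rose (log2 1.53, adjusted p = 0.0348) and Tnf fell (log2 -0.43, adjusted p = 0.0479), where 3.32% of all genes were called. The paired fit added Cd40lg (log2 0.55) and Tnfrsf1b (log2 -0.20), where it called 22.2% of all genes. Of 7 tested in the RBPJ experiment, none passed without the block (2 at an unadjusted p under 0.05 for RBPJ WT against the empty vector, 1 for F261A/A284V against it and 2 between the forms). In the paired fit Il6ra was lower with F261A/A284V than with RBPJ WT (log2 -0.74, adjusted p = 0.00652), a call that the merged fit lost (adjusted p = 0.0668). The paired fit called 4.74% of all genes there. RNA levels do not measure shedding.

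The genes whose values followed each member most closely were found by Pearson's r over the 12 RBPJ libraries, each set of replicates centred, among 9979 genes. They were 2010003K11Rik (0.96) and Plaur (0.95) for Aph1b, Eif5 (0.97) and Crot (0.96) for Adam10, Ddc and Aff4 (0.90 each) for Adam17, and Ccdc97 (0.97) and Itih5 (0.89) for Psen2. For Psenen they were Tamm41 (0.88) and Tbc1d19 (0.83), for Ncstn Nlgn2 (0.97) and Dcaf6 (0.96), and for Aph1a Tmem259 (0.93) and BC002163 (0.92). These are the highest of many values over few libraries that share group, depth and near-identical pairs, and they are given as a description. Among the members themselves, the values of r between the γ-secretase genes Psen2, Psenen, Ncstn, Aph1a and Aph1b lay between -0.16 and 0.45. Adam17 ran opposite to Aph1b (r = -0.62) and Aph1a (r = -0.57).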

How the data were processed

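RNA was sequenced from 18 libraries of E2-10HA cells as stranded total RNA after ribosomal RNA depletion, per the labels' protocols. The deposited tables hold a normalized signal, gene counts that the authors divided by 1 factor per library. The submitters' processing notes name TopHat2 2.1.1, DESeq2 1.24.0 and mm9, while the counter, its annotation and how it used strands were not given in the sources used here. Every value came out as whole reads within 0.1 read. The 2 tables were normalized separately and were tested separately. Genes at 10 or more in at least 3 (hairpin) or 4 (RBPJ) libraries were tested on log2(value + 1) with limma 3.58.1 in R 4.3.3, 2-sided, with Benjamini-Hochberg adjustment over 11586 and 11691 genes and a threshold of 0.05; fold changes are on that scale. The RBPJ experiment was 1 fit to 12 libraries. Alternatives were the replicate number as a block, the set of replicates (1 and 2, 3 and 4) as a term, merging near-identical libraries, other pseudocounts, filters and scalings, and leaving out each library. Chosen after seeing the data were edgeR 4.0.16 and DESeq2 1.42.0 on the recovered reads and leaving out replicate 3 of both hairpin groups. The fit with group as the only term was tested on simulated data that held no sets of replicates and no near-identical pairs. The paired and merged fits were not tested in this way. Deviations of libraries with the same number correlated at 0.24 to 0.54 (hairpin) and 0.55 to 0.81 (RBPJ), so the numbers were taken to pair them. In the hairpin experiment libraries with different numbers correlated at -0.47 to 0.33. There shRNA replicate 1 and scramble replicate 2 (0.33) correlated more than replicate 2 of both groups (0.24). The pairing is therefore uncertain there, and the calls of Adam10 and Aph1b with all hairpin libraries rest on it. In the RBPJ experiment libraries of the same set but another number correlated as highly, at 0.56 to 0.83, so there the block stands for the set. Exon lengths came from GENCODE M21 and upstream sequences from RefSeq, both on GRCm38, and no coordinate of another build was used. The genes described and the lists around them were chosen with earlier results of these data known. Named besides them are, from each list, the genes called, at most 4 by size, and for each member the 2 genes of highest r with a mean of at least 50. Reads carry counting error, which is larger in replicates 3 and 4 of the RBPJ experiment, where depth was lowest. A result for 1 gene of the list of shed proteins is not reported here.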

Additional observations from a re-analysis of the deposited data

How the results depend on the processing

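The counts of genes called are given as percentages of all genes tested. For the hairpin, limma without the block called 3.32%. The replicate block gave 22.2%, of which 60.8% were higher (66.5% without it), quantile scaling 7.85% and DESeq2 5.65%. Leaving out libraries gave 0% to 16.6% and 0 to 2 members: 0% without scramble replicate 2, shRNA replicate 1 or shRNA replicate 2, 0.0432% without shRNA replicate 3, 8.88% without scramble replicate 3, and 16.6% without replicate 3 of both. The block called 2 members, Adam10 and Aph1b. For RBPJ WT against the empty vector 0.248% were called, 4 genes higher and 25 lower. The block gave 2.23%, the term for the set of replicates 2.42% (129 higher, 154 lower), merging near-identical libraries 0.111% without and 1.52% with that term, replicates 1 and 2 alone 1.00%, replicates 3 and 4 alone 1.26%, DESeq2 0.513% and edgeR with the term 2.87%, while leaving out libraries gave 0.145% to 0.180%. For F261A/A284V against the empty vector 0.0171% were called, against 0.0313% with no filter, 0.650% with the block, 0.693% with the term, 0.00855% and 0.0941% after merging without and with it, 0.128% and 1.15% within the sets, 0.0599% with DESeq2 and 0.821% with edgeR and the term. For F261A/A284V against RBPJ WT 0.316% were called (27 higher, 10 lower), against 4.74% with the block, 5.12% with the term (305 higher, 293 lower), 0.103% and 1.96% after merging, 1.63% and 7.05% within the sets, 0.667% with DESeq2, 4.83% with edgeR and the term, and 0.171% to 0.316% without single libraries. The member called was Aph1b, 1 of 7, in both comparisons with RBPJ WT. It was called under the block, the term, merging with the term and edgeR with the term. The pairing changed no other member's call. Fits within a set hold near-identical pairs counted here as 1 sample, so the percentages within sets are given as a description only.

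Signs turned only for differences that no fit called, all log2. Quantile scaling gave 0.0319 for Adam17 and 0.0134 for Ncstn with the hairpin, 0.000855 for Psenen with RBPJ WT, and -0.00195 for Adam10 between the forms. Merging without the term for the set gave 0.119 for Aph1c with F261A/A284V against the empty vector, and -0.0165 for Ncstn and -0.0570 for Aph1a between the forms. Merging with that term gave -0.0384, 0.0137 and 0.0352 for these, without a turn of sign. For F261A/A284V against the empty vector, replicates 1 and 2 gave -0.111 for Psen2 and 0.0513 for Aph1c, replicates 3 and 4 gave 0.0218 for Psenen, and edgeR with the term gave 0.0141 for Aph1c. Between the forms, replicates 1 and 2 gave -0.00431 for Ncstn, and replicates 3 and 4 gave -0.0449 for Adam10, 0.174 for Psen2 and 0.0282 for Psenen. Leaving out libraries gave, with the hairpin, -0.0480 to 0.0191 for Adam17, -0.0623 to 0.0370 for Ncstn and -0.0860 to 0.00368 for Aph1a. With RBPJ WT it gave -0.0123 to 0.0830 for Psen2 and -0.0856 to 0.0350 for Psenen. For F261A/A284V against the empty vector it gave -0.00703 to 0.0943 for Adam10, -0.0290 to 0.0928 for Psen2, -0.122 to 0.0563 for Psenen, -0.0829 to 0.0525 for Aph1a and -0.150 to 0.139 for Aph1c. Between the forms it gave -0.0501 to 0.0512 for Adam10, -0.0749 to 0.0469 for Psen2, -0.103 to 0.0751 for Psenen, -0.0223 to 0.0572 for Ncstn and -0.0216 to 0.109 for Aph1a. The cause of these changes was not tested. Over all libraries, the calls of Aph1b, and of Adam10 with the hairpin, rest on a term for replicate number or set. No more than 4 libraries per group, some near-identical, limit the precision of every value.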
